A study of Mus musculus with 27 samples.

Results

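The nuclear genes of the mitochondrial respiratory chain were followed in mouse splenic B cells that had been stimulated in culture with or without disulfiram (DSF). The members were taken by gene symbol: every protein-coding gene named as a subunit of NADH dehydrogenase (Nduf), succinate dehydrogenase (Sdha to Sdhd), the cytochrome bc1 complex (Uqcr), cytochrome c oxidase (Cox4 to Cox8) or ATP synthase (Atp5), together with the Ndufaf genes. The rule found 94 of the 54532 genes in the count tables. They comprise 38 genes of complex I, 4 of complex II, 8 of complex III, 18 of complex IV, 18 of complex V and 8 assembly factors of complex I. Atp5o was listed under a pair of identifiers, the second of which had no counts, so the 94 genes carry 93 symbols.

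The respiratory chain oxidises NADH at complex I and succinate at complex II, passes the electrons through complex III and cytochrome c to oxygen at complex IV, and uses the resulting proton gradient at complex V to make ATP. Complexes I, III, IV and V hold subunits from both genomes: most are encoded in the nucleus and imported, and a small core is encoded by the mitochondrial DNA, while complex II is wholly nuclear. Resting B cells are small and quiescent, and their activation is known to raise mitochondrial activity.

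The cells were wild-type C57BL6 splenic B cells, isolated by depletion of other cells and cultured for 3 h. In the first experiment 20 libraries formed 5 groups of 4: unstimulated cells with vehicle, cells given lipopolysaccharide (LPS, a T cell-independent stimulus) with vehicle, cells given interleukin-4 and an antibody to CD40 (IL-4+anti-CD40, written IL4CD40 here, a T cell-dependent stimulus) with vehicle, and each stimulus with 1 µM DSF, a drug against alcohol dependence that blocks aldehyde dehydrogenase. The second experiment had 7 single libraries: the same 5 conditions and each stimulus with 1 µM ibrutinib, an inhibitor of Bruton's tyrosine kinase. No library combined DSF with unstimulated cells, and the number of mice behind the libraries is not given in the sources used here. The study describes the samples of a group as biologically independent, and p-values measure the spread between these samples.

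The 20 libraries of the first experiment held 17804851 to 23632992 counts and the 7 others 16049295 to 24619776. Cell type markers were read in the first experiment only, as FPKM (fragments scaled by gene length and library depth, so that genes can be compared). Among B cell markers Cr2 was lowest, at 10.4 to 112, and Ighm highest, at 1447 to 3661, with Cd79a at 285 to 1271. No T cell marker exceeded 5.87 FPKM. Of the myeloid markers Lyz2 was at 49.8 to 406, Mpeg1 at 31.4 to 135 and Fcgr1 at 0.0362 to 2.73. The 4 unstimulated libraries fell into pairs. Replicates 1 and 2 held 76.5 and 77.1 summed FPKM of neutrophil markers, against 23.7 and 28.8 in replicates 3 and 4, and replicates 3 and 4 held 15.6 and 17.7 of erythroid markers against 3.73 and 2.97. Across genes the rank correlation was 0.997 to 0.998 within these pairs and 0.963 to 0.964 between them. The IL4CD40 libraries also paired (0.995 to 0.997 within, 0.986 to 0.992 between), and members took a larger share of counts in replicates 1 and 2. The libraries with IL4CD40 and DSF paired more weakly (0.9958 to 0.9959 within, 0.9935 to 0.995 between), and no fit left out a pair of these. Counts raised and lowered over all members that rest on the unstimulated or the IL4CD40 vehicle group are given with and without each pair. Counts by complex, counts by list and values of single genes are from all libraries unless stated.

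The 5 promoters shown here belong to the members whose levels moved farthest with DSF under both stimuli, 3 lower and 2 higher, among the 38 members whose promoter overlapped no gene of the files. The sequences are from RefSeq on GRCm38.p6 (the mm10 build of the files), 5′ to 3′ on the strand of the gene, and end at the base before the gene begins in the files or at the RefSeq start, whichever lies upstream. Capitals mark a match to a binding motif of NRF1 (GCGCANGCG), GABPA (CCGGAAG), YY1 (AAGATGGC) or the E-box (CACGTG) on either strand, factors or sequences known from the promoters of respiratory genes. The first of them belongs to Uqcr11 (chr10:80406831-80407071, minus strand), the second to Ndufv1 (chr19:4012807-4013005, minus strand) and the third to Ndufaf4 (chr4:24897833-24898082, plus strand). Cox7a2l (chr17:83514334-83514583, minus strand) and Cox7a2 (chr9:79759879-79760103, minus strand) follow.
Uqcr11: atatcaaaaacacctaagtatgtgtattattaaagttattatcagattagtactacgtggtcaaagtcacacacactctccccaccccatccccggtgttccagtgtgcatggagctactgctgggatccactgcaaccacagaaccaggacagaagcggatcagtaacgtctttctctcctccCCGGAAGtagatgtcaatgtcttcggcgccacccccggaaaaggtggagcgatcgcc
Ndufv1: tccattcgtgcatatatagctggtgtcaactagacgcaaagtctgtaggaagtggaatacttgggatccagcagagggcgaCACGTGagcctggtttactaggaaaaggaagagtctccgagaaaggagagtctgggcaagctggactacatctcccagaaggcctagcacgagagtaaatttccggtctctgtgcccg
Ndufaf4: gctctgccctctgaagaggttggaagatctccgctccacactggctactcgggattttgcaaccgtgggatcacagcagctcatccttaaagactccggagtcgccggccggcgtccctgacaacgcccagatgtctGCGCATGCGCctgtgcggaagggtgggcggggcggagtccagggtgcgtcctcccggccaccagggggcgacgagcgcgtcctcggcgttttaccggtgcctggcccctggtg
Cox7a2l: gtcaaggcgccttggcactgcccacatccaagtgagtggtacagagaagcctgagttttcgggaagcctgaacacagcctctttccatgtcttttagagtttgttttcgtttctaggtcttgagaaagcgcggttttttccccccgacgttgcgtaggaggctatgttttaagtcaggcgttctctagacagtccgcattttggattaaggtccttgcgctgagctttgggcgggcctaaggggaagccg
Cox7a2: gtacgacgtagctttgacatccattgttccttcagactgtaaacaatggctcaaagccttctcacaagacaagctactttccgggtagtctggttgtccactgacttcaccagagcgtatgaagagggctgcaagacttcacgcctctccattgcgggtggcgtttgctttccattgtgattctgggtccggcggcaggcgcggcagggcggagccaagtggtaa

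The capitals in Uqcr11 mark GABPA, those in Ndufv1 the E-box, and those in Ndufaf4 a pair of NRF1 matches on opposite strands that overlap by all but 1 base. Uqcr11 had a further NRF1 match that ran past the RefSeq start and is not shown, and the promoters of Cox7a2l and Cox7a2 held none of the 4 motifs. RefSeq had 80 promoters for 75 of the 94 members. Over the 300 bases from 250 before to 50 after the start, the NRF1 motif was in 24 of these (30%) against 6.25% of all 32851 mouse promoters in the table, GABPA in 22.5% against 8.86%, YY1 in 12.5% against 2.75%, and the E-box in 7.5% against 7.15%. By complex the NRF1 motif was in 9 of 35 promoters of complex I, 2 of 3 of complex II and 2 of 5 of complex III. It was in 1 of 13 of complex IV, 8 of 17 of complex V and 2 of 7 of the assembly factors. The NRF1 motif was in 15 of the 41 promoters of members lower with DSF under both stimuli, in 0 of the 4 of members higher under both, and in 9 of the 35 others. GABPA went the other way, with 6 of 41, 1 of 4 and 11 of 35. For YY1 these were 7, 0 and 3, and for the E-box 3, 0 and 3. These are matches of letters, with no measure of binding.

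Before any comparison, the levels differed greatly between genes. In the first experiment 87 of the 94 members had a mean of at least 1 FPKM, and the 7 others were Ndufa4l2, Cox4i2, Cox6b2, Cox7b2, Cox8b, Cox8c and the second Atp5o identifier. Catalytic ATP synthase subunit Atp5b was the most abundant member at 201 FPKM, followed within complex IV by Cox8a at 169. In the other complexes the highest means were 76.0 for Uqcrfs1, the Rieske iron-sulphur protein, 54.8 for Ndufa2, 53.0 for Sdhd, a membrane anchor of complex II, and 19.9 for Ndufaf8. The median member had 20.6 FPKM in complex I, 35.1 in complex II, 41.1 in complex III, 34.5 in complex IV and 38.8 in complex V, and the median assembly factor 5.25.

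Where a subunit has tissue isoforms, the B cells used the widely expressed one. Cox4i1 was at 142 FPKM and its lung isoform Cox4i2 at 0.172, Cox6b1 at 94.5 and the testis isoform Cox6b2 at 0.687, and Ndufa4, whose protein sits in complex IV, at 42.7 against 0.156 for Ndufa4l2. The heart and muscle isoforms were likewise low. Cox6a2 had 2.19 FPKM against 153 for Cox6a1, and Cox8b had 0.154. Cox7a1 had 1.36 against 39.1 for Cox7a2 and 106 for Cox7a2l (cytochrome c oxidase subunit 7A2 like). The testis isoform Cox8c had no counts in the first experiment. The c subunit of ATP synthase, 1 mature protein from 3 genes, came mostly from Atp5g2 (64.3 FPKM) and Atp5g3 (59.6), with 6.12 from Atp5g1.

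Both stimuli raised more members than they lowered, with assembly factors and complex III at the front. LPS raised 30 of the 87 members tested and lowered 17, beside 29.6% of all genes tested raised and 33.3% lowered; IL4CD40 raised 35 of 88 and lowered 10, beside 30.4% and 32.1%. At the median, members stood at a log2 fold change of 0.11 after LPS and 0.20 after IL4CD40, and all genes at −0.05 and −0.04. Both comparisons share the unstimulated libraries. Calls throughout are from edgeR's quasi-likelihood test with a Benjamini-Hochberg adjusted p under 0.05 over all genes tested, and in bulk RNA fewer cells of a type and less RNA per cell cannot be told apart.

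**Figure D1:**
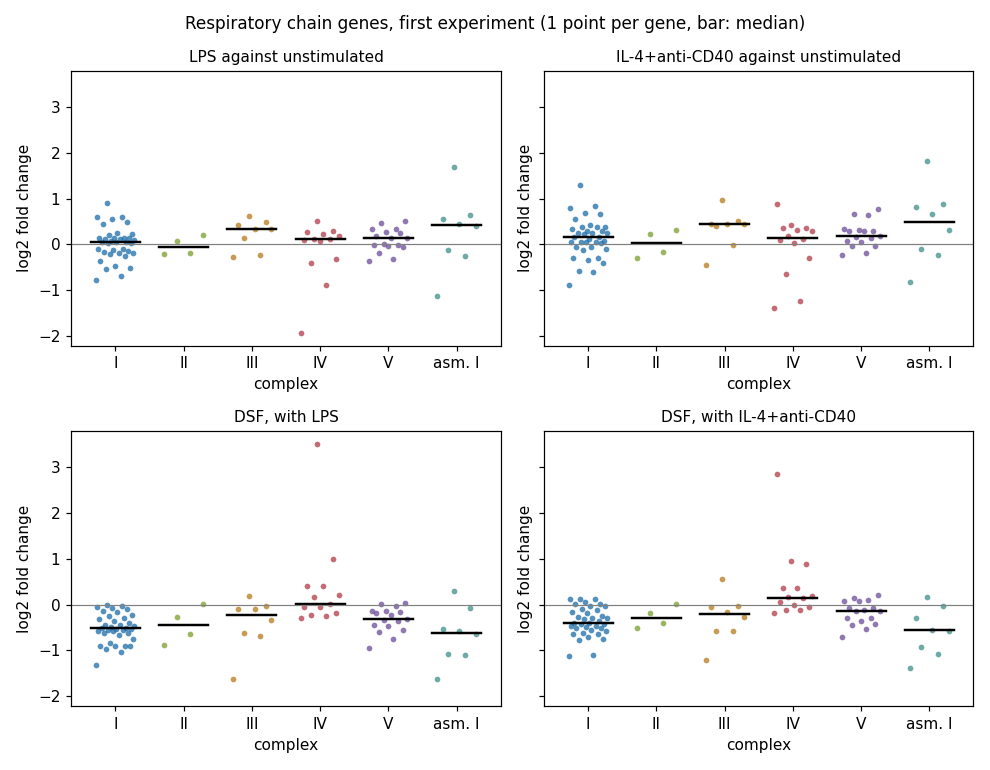
Log2 fold change (vertical axis) of each tested member in the 4 pairwise comparisons of the first experiment, by complex, with the complex I assembly factors apart (asm. I); 1 point is 1 gene and the bar the median. With DSF the medians of complex I and of the assembly factors lay at −0.52 and −0.61 with LPS and at −0.41 and −0.56 with IL4CD40, and those of complex IV at 0.02 and 0.15.

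These counts depended on scaling. With libraries scaled by total counts in place of TMM, edgeR's trimmed-mean factors, the median of all genes moved to −0.27 for LPS and −0.19 for IL4CD40, and the members split into 11 raised and 30 lowered with LPS and 23 raised and 16 lowered with IL4CD40; the members' median stayed 0.15 and 0.24 above that of all genes under either scaling. Of all genes tested, total counts gave 2903 raised and 6387 lowered of 14477 with LPS, and 3454 and 5574 of 14433 with IL4CD40. Without unstimulated replicates 1 and 2, LPS raised 35 members and lowered 25, beside 5618 and 5902 of 15229 genes. Without replicates 3 and 4 it raised 38 and lowered 16, beside 5005 and 5238 of 15090. For IL4CD40 the first fit gave 38 and 15, beside 5157 and 5545 of 15335. The second gave 34 and 8, beside 4352 and 4705 of 15066. Without IL4CD40 replicates 1 and 2 that stimulus raised 23 and lowered 9, beside 3652 and 3496 of 15483. Without its replicates 3 and 4 it raised 46 and lowered 3, beside 3849 and 3847 of 15372. The number lowered by LPS also depended on single libraries: it was 10 without LPS replicate 1 and 11 without LPS replicate 3, LPS replicate 4 or unstimulated replicate 3.

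Markers of other cells differed between the same groups. The 8 myeloid markers summed to 399.5 to 483.2 FPKM in unstimulated cells, 226.3 to 244.7 with LPS and 130.9 to 145.6 with IL4CD40, without overlap, and of the 8 tested LPS raised 2 and lowered 4 while IL4CD40 raised 0 and lowered 6. None of the 8 was at 0 throughout a group, and their part in the result was not tested.

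Among assembly factors, 5 of 8 rose with either stimulus, while 2 fell with LPS and 1 with IL4CD40, and their summed level rose from 55.9 ± 2.18 FPKM (SD, n = 4) in unstimulated cells to 74.7 ± 3.04 with LPS and 81.3 ± 9.53 with IL4CD40. Ndufaf4, an early assembly factor of complex I encoded at chr4:24898083-24905001, gave the largest rise of any member. Its level was 6.60, 6.41, 4.27 and 4.05 FPKM in the unstimulated libraries, 16.5, 18.0, 17.2 and 16.02 with LPS, and 21.8, 21.1, 15.5 and 15.5 with IL4CD40. Every stimulated library was above every unstimulated one, with log2 fold changes of 1.68 (SE 0.16, edgeR adjusted p = 2.79e-05) after LPS and 1.82 (SE 0.19, adjusted p = 5.89e-05) after IL4CD40. Ndufaf3, which works with Ndufaf4 at the same step, went the other way, by −1.12 and −0.83. It lay at 6.17 to 8.89 FPKM in unstimulated cells and at 2.82 to 3.89 with LPS, without overlap, but its gene overlaps Impdh2 on the other strand.

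In complex III, 5 of 8 genes rose with LPS and 6 with IL4CD40, and the summed level went from 358 ± 16.9 to 416 ± 11.6 and 436 ± 47.2 FPKM. Uqcrq was at 27.8, 24.5, 19.6 and 22.3 FPKM in unstimulated cells, 35.2, 34.7, 38.3 and 34.5 with LPS and 48.8, 49.3, 40.3 and 42.4 with IL4CD40, so that the 3 groups did not overlap (log2 fold change 0.61 and 0.96). The hinge protein gene Uqcrh had −0.24 with LPS, which did not pass the test, and fell by 0.45 with IL4CD40.

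In complex V, 7 of 17 genes rose with either stimulus. Atp5b was at 163, 154, 142 and 137 FPKM in unstimulated cells, 209, 208, 217 and 209 with LPS and 268, 279, 228 and 223 with IL4CD40; the order of the 3 groups held in every library (log2 fold change 0.51 and 0.77). Complex I was more even, with 8 genes raised and 8 lowered by LPS and 11 and 5 by IL4CD40. Ndufa12, an accessory subunit, rose by 0.92 and 1.30 and Ndufb6 by 0.61 and 0.84, while Ndufv3 fell by 0.78 and 0.90 and Ndufa13 by 0.68 and 0.60. In complex II the changes were small: Sdha, the flavoprotein, fell by 0.21 and 0.31, and Sdhb, its iron-sulphur partner, had 0.21 with LPS, which missed the threshold, and rose by 0.32 with IL4CD40.

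Within complex IV Cox5a rose by 0.52 and 0.87, and Cox7a2l gave the largest fall among abundant members. Its level was 128, 129, 185 and 193 FPKM in unstimulated libraries, 84.9, 80.9, 91.2 and 83.3 with LPS, and 64.4, 55.7, 56.5 and 63.6 with IL4CD40. The groups did not overlap, although the unstimulated pairs stood apart in this gene too, and the log2 fold change was −0.89 (SE 0.15, edgeR adjusted p = 0.000999) and −1.39 (SE 0.16, adjusted p = 9.1e-05). Cox6b2 fell by 1.94 and 1.24 at levels of 0.609 to 1.97 FPKM in unstimulated cells, with replicates 3 and 4 high.

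With LPS, DSF lowered most of the members tested, and complex IV stood apart under both stimuli. In LPS-treated cells 61 of 87 members fell and 8 rose, beside 36.0% of all genes tested falling and 35.1% rising, and the members' median was −0.35 against 0.00 for all genes. In IL4CD40-treated cells 43 of 88 fell and 7 rose, beside 31.6% and 30.1%, with a median of −0.22 against −0.02. Of the 87 members tested under both stimuli 43 fell under both, 18 fell with LPS alone by this threshold, 6 rose under both and 0 changed in opposite directions. Joint shares over all genes are not given here, so this agreement cannot be read as particular to the members.

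With LPS the fall was found in members that the stimulus had moved either way. Of the 30 raised by LPS 20 fell with DSF and 2 rose, and of the 17 lowered 12 fell and 1 rose. Over all genes tested 36.0% fell and 35.1% rose. Of the 35 raised by IL4CD40 19 fell and 1 rose, beside 31.6% and 30.1% of all genes. Of the 10 lowered by IL4CD40 4 fell and 2 rose, which is near the share of all genes. Shares over all genes moved the same way by the stimulus are not given here. These comparisons share the vehicle-treated stimulated libraries, so the counts are given as a description. The share of all counts in members went from 0.596% to 0.63% with LPS to 0.41% to 0.452% with LPS and DSF, and from 0.642% to 0.757% to 0.53% to 0.568% with IL4CD40, against 0.622% to 0.68% in unstimulated cells. Other markers moved beside it: 9 of 10 B cell markers fell with DSF in LPS-treated cells and 6 of 10 in IL4CD40-treated cells (summed level 4247 to 4519 FPKM with LPS and 3641 to 3961 with DSF, 4244 to 4913 and 3937 to 4039), with none of the 10 at 0 throughout a group. The 8 T cell markers summed to 2.26 to 3.26 FPKM with LPS and 4.77 to 6.72 with DSF, where 2 of the 4 tested rose and 2 fell, and to 2.03 to 3.17 with IL4CD40 and 4.24 to 5.50 with DSF, where 1 of 2 rose and 0 fell. The 8 myeloid markers summed to 226.3 to 244.7 FPKM with LPS and 181.3 to 187.2 with DSF (2 of 8 tested higher, 3 lower), and to 130.9 to 145.6 with IL4CD40 and 163.9 to 200.1 with DSF (4 of 7 higher, 0 lower). The 6 neutrophil markers summed to 20.4 to 23.5 FPKM with LPS and 26.2 to 29.0 with DSF (3 of 5 tested higher, 0 lower), and to 13.5 to 19.1 with IL4CD40 and 20.5 to 24.4 with DSF (2 of 5 higher, 0 lower). No T cell or myeloid marker was at 0 throughout a group, and 1 neutrophil marker was at 0 throughout the IL4CD40 and DSF group. The part of these cell types in the result was not tested.

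**Figure D2:**
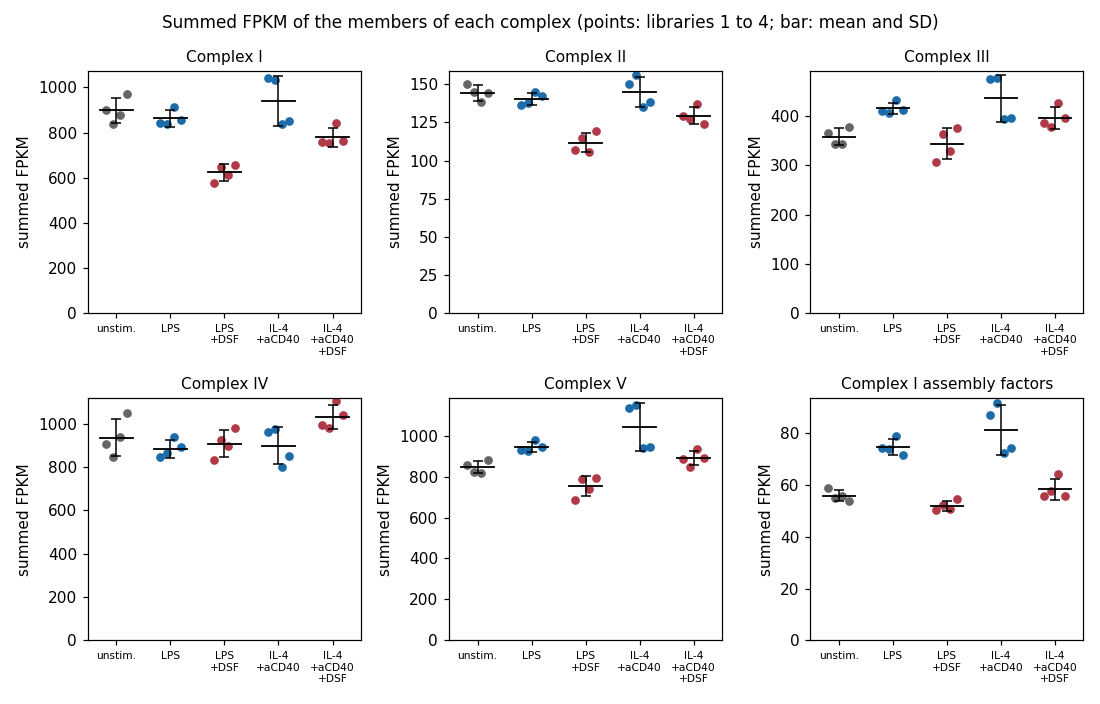
Summed FPKM (vertical axis, from 0) of the members of each complex in the 20 libraries of the first experiment; points are libraries, the bar and whiskers the mean and SD of 4. Complex I lay at 577 to 657 with LPS and DSF and at 836 to 915 with LPS alone, whereas complex IV with DSF lay at 831 to 979 and overlapped the LPS group.

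Without the IL4CD40 replicates 1 and 2, in which members were high, 30 members fell with DSF and 14 rose, beside 3793 and 3862 of 14938 genes. The members' median was then −0.09 against 0.002 for all genes. Without replicates 3 and 4, 57 fell and 6 rose, beside 4567 and 4644 of 14887 genes, with medians of −0.355 and 0.01. The LPS comparison involved no group that split into pairs. Total-count scaling put the median of all genes at −0.21 with LPS and −0.16 with IL4CD40. By it 78 members fell and 4 rose with LPS, beside 6680 and 3473 of 14154 genes. With IL4CD40 62 fell and 4 rose, beside 5832 and 3262 of 14275 genes. Among the 54 members whose gene overlaps no other, 35 of 49 tested fell and 4 rose with LPS, and 24 of 50 fell and 2 rose with IL4CD40.

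Complex I fell most widely, in 83.8% of its tested genes with LPS and 67.6% with IL4CD40. With DSF 31 of the 37 complex I genes tested fell with LPS and 25 with IL4CD40, and 0 rose under either stimulus (0 also at an unadjusted p under 0.05 and with DESeq2). Their summed level went from 863 ± 36.1 to 624 ± 36.8 FPKM (SD, n = 4; −27.7%) with LPS and from 940 ± 110 to 779 ± 41.1 (−17.1%) with IL4CD40, against 898 ± 55.4 in unstimulated cells.

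Ndufv1, the subunit that binds flavin mononucleotide and takes electrons from NADH (chr19:4007497-4012806), fell most in complex I with LPS. It was at 23.3, 22.2, 23.1 and 24.2 FPKM with LPS and 8.12, 10.9, 8.59 and 9.05 with LPS and DSF, and at 26.1, 27.3, 21.8 and 20.2 with IL4CD40 and 11.5, 10.1, 11.8 and 11.3 with DSF added. All DSF libraries lay below all others, unstimulated ones (23.8 to 28.2) included. The level was 2.49-fold lower with LPS (log2 fold change −1.32, SE 0.07, edgeR adjusted p = 1.25e-14) and 2.16-fold lower with IL4CD40 (−1.11, SE 0.10, adjusted p = 3.07e-06). Ndufb10 and Ndufb4, accessory subunits of the membrane arm, fell by 1.03 and 0.90 with LPS and by 0.75 and 0.77 with IL4CD40. Ndufa12, which the stimuli had raised, was at 4.93 to 11.7 FPKM with LPS and DSF and at 9.93 to 19.4 with LPS, which overlap, and at 7.07 to 8.71 against 12.3 to 24.0 with IL4CD40, which do not (log2 fold change −0.52 and −1.10). The most abundant member of the complex, Ndufa2, did not pass the test, at −0.14 and 0.12.

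Of the 8 assembly factors 6 fell with LPS and 5 with IL4CD40. Ndufaf4 went to 8.16, 7.82, 7.75 and 7.65 FPKM with LPS and DSF and to 9.66, 8.76, 9.05 and 8.13 with IL4CD40 and DSF, between the unstimulated and the stimulated levels with no overlap with either. The log2 fold change was −1.09 (SE 0.05, edgeR adjusted p = 3.39e-15) and −1.07 (SE 0.12, adjusted p = 1.32e-05). Ndufaf7, a methyltransferase (chr17:78937136-78948052), was at 3.82, 4.03, 3.36 and 3.57 FPKM with LPS and 1.15, 1.16, 1.23 and 1.24 with DSF, and at 4.09, 4.06, 3.95 and 2.73 with IL4CD40 and 1.66, 1.29, 1.51 and 1.34 with DSF. Unlike Ndufaf4 it ended below the unstimulated range of 4.00 to 4.80, with log2 fold changes of −1.61 (adjusted p = 1.95e-12) and −1.38 (adjusted p = 1.18e-05) by edgeR. Ndufaf6 alone among assembly factors rose with LPS, by 0.30, and had 0.17 with IL4CD40, which missed the threshold.

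**Figure D3:**
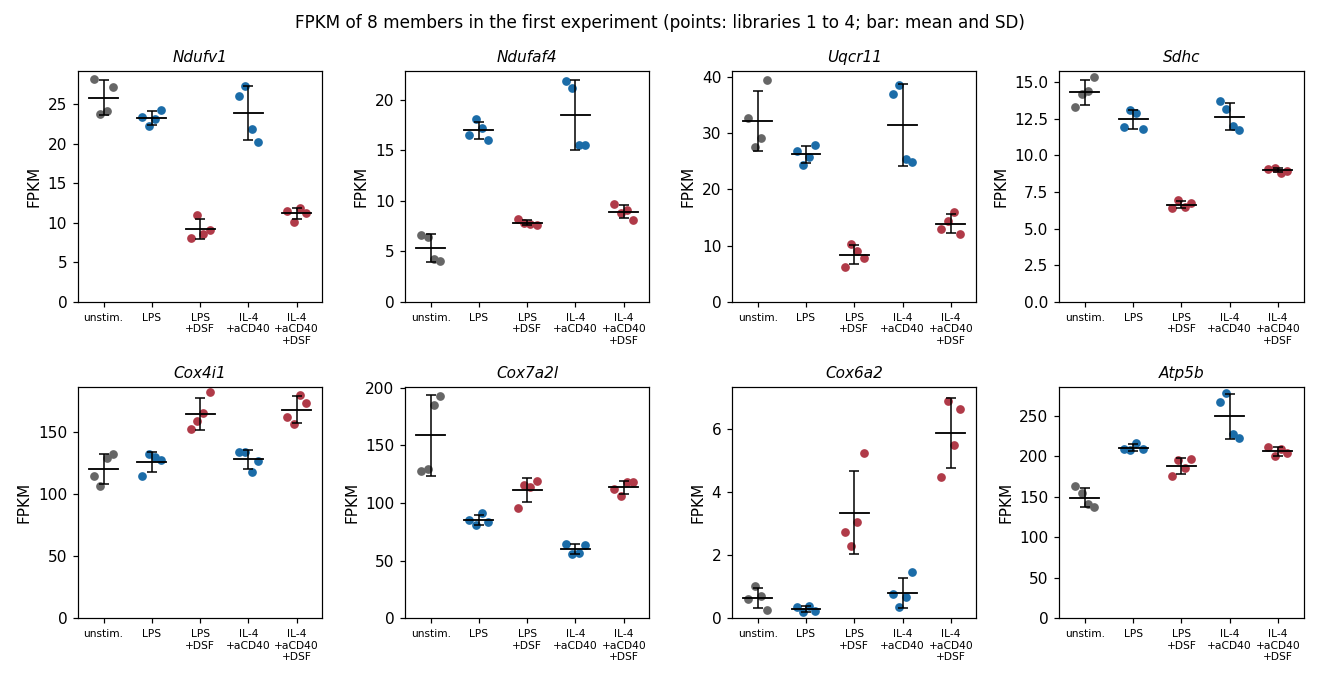
FPKM (vertical axes, from 0) of 8 members in the 5 groups of the first experiment; points are libraries 1 to 4, the bar and whiskers the mean and SD. Ndufv1, Ndufaf4, Uqcr11 and Sdhc are lower in every DSF library than in every library of the same stimulus, Cox4i1, Cox7a2l and Cox6a2 higher, and the stimulus groups of Ndufaf4 lie above both the unstimulated and the DSF groups.

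In complex II the 4 genes parted. Sdhc, a membrane anchor, was at 11.97, 13.1, 12.9 and 11.8 FPKM with LPS and 6.39, 6.93, 6.47 and 6.77 with DSF, and at 13.7, 13.2, 12.02 and 11.7 with IL4CD40 and 9.04, 9.13, 8.82 and 8.92 with DSF (log2 fold change −0.89 and −0.52), with no overlap in either pair. Sdha fell by 0.63 and 0.40, and Sdhb by 0.27 with LPS, while its −0.17 with IL4CD40 did not pass. Sdhd, the other anchor, had 48.2 to 53.3 FPKM with LPS and 46.05 to 55.2 with DSF and did not pass under either stimulus, at 0.01 in each, though with total-count scaling it was called lower with LPS, at −0.20.

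In complex III, DSF lowered 4 of 8 genes and raised 1 under each stimulus. Uqcr11, a small subunit (chr10:80402997-80406830), showed the largest fall of any member with LPS: 26.8, 24.3, 25.7 and 27.9 FPKM became 6.27, 10.3, 9.06 and 7.87, and with IL4CD40 36.9, 38.6, 25.4 and 24.9 became 13.0, 14.4, 15.99 and 12.1. No DSF library reached any library without it, unstimulated ones (27.5 to 39.4) included, and the level was 3.08-fold lower (log2 fold change −1.62, SE 0.12, edgeR adjusted p = 3.96e-12) and 2.29-fold lower (−1.20, SE 0.16, adjusted p = 5.45e-05). The others that fell were Uqcrc1 and Uqcrc2, the core proteins, by 0.63 and 0.69 with LPS, and Uqcr10 by 0.34, all 3 named after their values were seen. Uqcrfs1 and Uqcrq, which both stimuli had raised, did not pass the test with DSF, at −0.09 for each with LPS.

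In complex V, 13 of 17 genes fell with LPS and 0 rose (0 also with DESeq2 and at an unadjusted p under 0.05), and 7 fell and 1 rose with IL4CD40. The summed level went from 944 ± 24.7 to 752 ± 49.1 FPKM and from 1043 ± 118 to 889 ± 34.5. Without IL4CD40 replicates 1 and 2 the second comparison had 5 genes lower and 5 higher. Atp5b fell by 0.14 and 0.29 on the log2 scale, from the levels given above to 176, 196, 186 and 196 FPKM with LPS and 212, 200, 209 and 204 with IL4CD40; it stayed above the unstimulated range in all 8 DSF libraries. The 3 genes for the c subunit all fell: Atp5g1 by 0.94 and 0.71, Atp5g2 by 0.45 and 0.42 and Atp5g3 by 0.33 and 0.28.

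Complex IV went differently. With DSF 6 of 13 genes rose and 4 fell with LPS, and 5 of 14 rose and 0 fell with IL4CD40 (1 at an unadjusted p under 0.05, 0 with DESeq2); with total-count scaling these were 4 higher and 7 lower, and 3 and 4. As shares, 46.2% rose in LPS-treated cells beside 35.1% of all genes tested, and 30.8% fell beside 36.0%. In IL4CD40-treated cells 35.7% rose beside 30.1%, and 0 fell beside 31.6%. The shares that rose were thus not far from those of all genes. What set complex IV apart by these calls was that a smaller share of its genes fell than in complexes I, II, III and V. With LPS that share was near the share of all genes. The summed level of complex IV was 884 ± 40.3 FPKM with LPS and 908 ± 61.4 with DSF, and 899 ± 85.7 and 1030 ± 55.1 with IL4CD40. Cox4i1, the common isoform of subunit 4, was at 115, 133, 130 and 128 FPKM with LPS and 153, 160, 166 and 183 with DSF, and at 134, 134, 118 and 127 with IL4CD40 and 162, 157, 181 and 174 with DSF. The groups did not overlap, with log2 fold changes of 0.40 (SE 0.05, edgeR adjusted p = 1.31e-07) and 0.37 (SE 0.06, adjusted p = 0.000241). The genes that fell with LPS were Cox6a1 by 0.22, Cox6b1 by 0.18, and Cox6c and Cox7b, named after their values were seen, by 0.28 and 0.26.

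Cox7a2l (chr17:83501919-83514333), which both stimuli had lowered, was at 95.8, 115, 114 and 119 FPKM with LPS and DSF and at 112, 106, 118 and 118 with IL4CD40 and DSF. These levels lay above every library of the same stimulus without DSF and below every unstimulated one, and the log2 fold change was 0.40 (SE 0.05, edgeR adjusted p = 3.51e-07) and 0.90 (SE 0.07, adjusted p = 1.63e-06). Cox7a2 rose by 0.22 and 0.36 and Cox7c by 0.16 and 0.20, although Cox7c did not pass with IL4CD40 under several other settings. In complex III, Uqcrh rose by 0.19 with LPS, where total-count scaling gave −0.02 and no call, and by 0.56 with IL4CD40. Part of the Cox4i1 and Uqcrh genes is shared with genes on the other strand, and whether counting used strand is not given in the sources used here.

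The muscle isoform gene Cox6a2 (chr7:128205435-128206387) had the largest relative change of any member, at a low level. Its counts were 11, 18, 12 and 4 in unstimulated cells, 5, 3, 5 and 3 with LPS and 31, 28, 33 and 65 with LPS and DSF, and 11, 5, 10 and 19 with IL4CD40 and 61, 91, 82 and 100 with DSF. Every DSF library was above every other library. Summed over libraries, 157 counts stood against 16, a ratio per total counts of 10.3 (95% exact interval 6.14 to 18.4, counting error only), and 334 against 45, a ratio of 6.59 (4.82 to 9.21). The edgeR log2 fold change was 3.52 (SE 0.38, adjusted p = 7.87e-09) and 2.85 (SE 0.31, adjusted p = 1.48e-05). At its highest in the first experiment, 6.88 FPKM, it remained far below Cox6a1, which was at 123 to 178 FPKM in the DSF libraries. Itgad, which overlaps it on the other strand, had 7, 2, 2 and 2 counts with LPS and 11, 12, 6 and 7 with DSF, 9, 1, 18 and 6 with IL4CD40 and 9, 8, 15 and 9 with DSF, and 93, 68, 29 and 18 in unstimulated cells.

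The count of members whose DSF effect differed between the stimuli depended on the IL4CD40 libraries. With all libraries, the share called lower was near that of all genes. In 1 fit of the 16 stimulated libraries, the effect with LPS was lower than that with IL4CD40 for 8 of 88 members and higher for 0, beside 6.96% lower and 7.92% higher over all genes tested; at an unadjusted p under 0.05 these were 16 and 1, and with DESeq2 10 and 0. They included Atp5k (−0.67), Ndufv3 (−0.50), Cox7a2l (−0.50), Ndufa6 (−0.48), Uqcrh (−0.38), Sdhc (−0.38) and Sdha (−0.24). Without IL4CD40 replicates 1 and 2 the count rose to 37 lower, beside 1461 lower of 15783 genes. Without replicates 3 and 4 it was 5 lower and 2 higher, beside 1465 and 1409 of 15778 genes. The members' median difference was −0.28 and −0.02 in these fits, against 0.01 for all genes in each. All 8 differences stayed negative in both, and 8 and 5 of them were called. The count was also 5 lower without IL4CD40 replicate 3 alone and without replicate 3 of IL4CD40 with DSF alone. Without IL4CD40 replicate 4, 1 was higher.

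In Ndufv3, Sdhc and Sdha, DSF lowered the gene under both stimuli and more with LPS. Ndufv3, an accessory subunit of complex I, was at 6.27, 6.59, 6.19 and 5.96 FPKM with LPS and 2.87, 2.78, 3.27 and 3.79 with DSF, and at 6.22, 6.64, 5.14 and 5.00 with IL4CD40 and 4.03, 4.50, 4.46 and 3.97 with DSF. The DSF groups themselves did not overlap, and the difference of the log2 fold changes was −0.50 (SE 0.15, edgeR adjusted p = 0.0287). Ndufa6 and Atp5k, a membrane subunit of ATP synthase, fell with LPS by 0.36 and 0.59 and did not pass with IL4CD40, at 0.11 and 0.07. Cox7a2l and Uqcrh rose less with LPS (difference −0.50, SE 0.10, adjusted p = 0.00132 by edgeR for Cox7a2l).

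Genes of the chain that the symbols do not cover were read from a fixed list of 51 assembly factors, cytochrome c and others. Of the 49 tested, DSF lowered 34 and raised 7 with LPS (median −0.44) and lowered 30 and raised 5 with IL4CD40 (median −0.42), beside the percentages of all genes given above, while LPS raised 16 and lowered 12 and IL4CD40 raised 20 and lowered 11. Ecsit, an assembly factor of complex I, fell by 1.79 and 1.69, Bcs1l, which inserts the Rieske protein into complex III, by 1.44 and 1.12, Sdhaf1, an assembly factor of complex II, by 1.42 and 1.18, and Taco1, a translational activator of a complex IV subunit, by 1.38 and 1.06. Coa7 and Surf1, assembly factors of complex IV, rose by 0.78 and 0.43 and by 0.34 and 0.56. All of these passed the test, and they are examples picked after the values were seen.

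Most of the 13 genes encoded by the mitochondrial DNA rose with DSF, while more nuclear members fell than rose. LPS changed 0 of the 13 (0 also at an unadjusted p under 0.05, 1 higher with DESeq2) and IL4CD40 lowered 1. DSF raised 9 with LPS and 10 with IL4CD40, beside 35.1% and 30.1% of all genes tested. It lowered 0 under either, beside 36.0% and 31.6%, with 0 also at an unadjusted p under 0.05, with DESeq2 and with total-count scaling. With total-count scaling 6 and 9 rose. Their summed level was 13010 to 13920 FPKM with LPS and 15890 to 17220 with DSF, and 11000 to 13130 with IL4CD40 and 15480 to 17600 with DSF, without overlap. The median log2 fold change was 0.33 and 0.42, and mt-Co3, a catalytic-core subunit of complex IV, rose by 0.47 and 0.57. Libraries were made by poly(A) selection, which takes mitochondrial transcripts by their short tails.

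**Figure D4:**
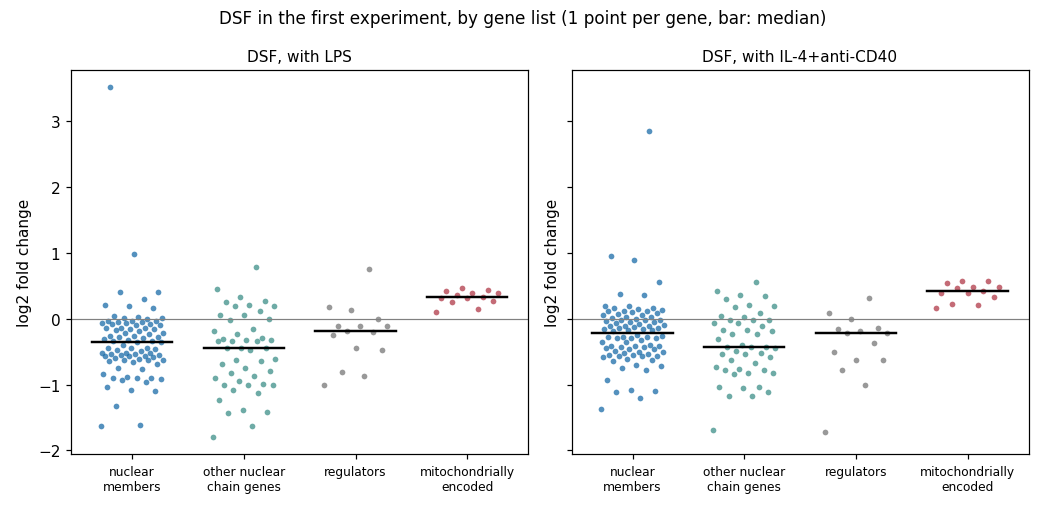
Log2 fold change with DSF (vertical axis) under each stimulus for the nuclear members, the other nuclear chain genes, regulators of the chain and the 13 mitochondrially encoded genes; 1 point is 1 gene and the bar the median. The mitochondrially encoded genes lie above 0 in both panels, at medians of 0.33 and 0.42, and the other nuclear chain genes have medians of −0.44 and −0.42.

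Among 16 regulators of respiratory genes, LPS raised 7 and lowered 4, beside 29.6% and 33.3% of all genes tested. IL4CD40 raised 8 and lowered 2, beside 30.4% and 32.1%. Of the 15 tested with DSF 10 fell and 3 rose with LPS, beside 36.0% and 35.1% of all genes. With IL4CD40 11 fell and 1 rose, beside 31.6% and 30.1%. Nrf1, whose motif is described above, rose by 0.29 and 0.39 with the stimuli and fell by 0.11 and 0.18 with DSF. Polrmt, the mitochondrial RNA polymerase, fell with DSF by 0.87 and 0.78, Tfb1m, a methyltransferase of mitochondrial ribosomal RNA, by 1.00 and 1.01, and Esrra, a nuclear receptor that acts on respiratory genes, by 0.48 and 0.63. Myc rose by 3.65 and 2.41 with the stimuli and fell by 0.44 and 0.63 with DSF.

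In the second experiment, with 1 library per condition, no test was possible and called means a ratio of at least 1.5-fold. DSF took 55 of 87 members past 1.5-fold lower and 4 higher with LPS, beside 31.6% and 30.1% of all genes, and 52 and 4 with IL4CD40, beside 31.6% and 32.0%. The median log2 ratios of −0.86 and −0.73 were further from 0 than in the first experiment. Of the 61 members lower with LPS in the first experiment 59 were below 0 here and 50 past 1.5-fold. Of the 43 lower with IL4CD40 these were 43 and 41. Of those higher, 7 of 8 and 7 of 7 were above 0 and 4 and 3 past 1.5-fold. The same shares over all genes called in the first experiment are not given here, so this carry-over cannot be read as particular to the members.

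The order of the complexes was again led by assembly factors (median log2 ratio −1.28 and −1.19), with complex I at −1.04 and −0.87, complex II at −1.17 and −0.86, complex V at −0.57 and −0.54 and complex IV at −0.03 and 0.07. Ndufaf4 had 5.46 FPKM in the unstimulated library, 17.8 with LPS and 1.68 with LPS and DSF, and 18.4 and 1.76 with IL4CD40, log2 ratios of −3.38 and −3.36. Here the DSF libraries lay below the unstimulated one, and not between as in the first experiment. Sdhd, at 55.0 and 27.6 FPKM without and with DSF in LPS-treated cells and at 55.8 and 35.2 with IL4CD40, was lower here while it had not passed before. Cox6a2 had 105 counts with DSF and 2 without in LPS-treated cells, a ratio of 45.6 (12.3 to 381, counting error only), and 109 against 3 with IL4CD40 (39.9, 13.3 to 196).

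**Figure D5:**
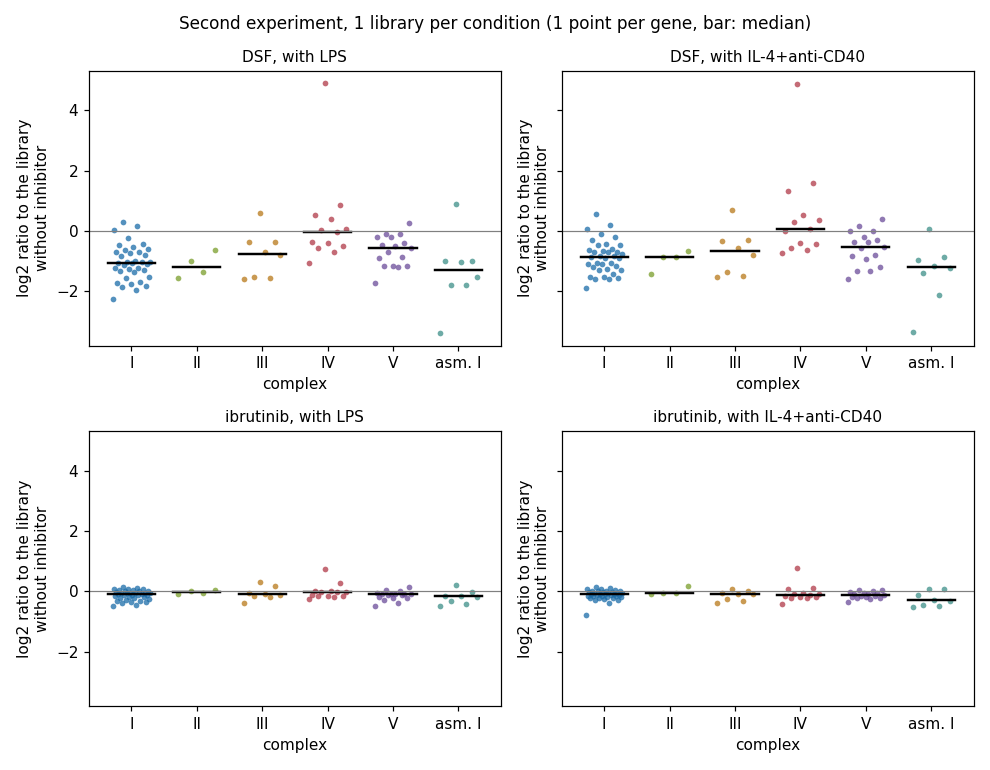
Log2 ratio (vertical axis) of each member in the second experiment to the library of the same stimulus without inhibitor, by complex, for DSF (upper panels) and ibrutinib (lower panels); 1 point is 1 gene, the bar is the median and no replicate stands behind a point. DSF medians for complex I are −1.04 and −0.87, and ibrutinib medians over all members are −0.10 in both panels.

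Ibrutinib at the same dose and time changed few members. With LPS 1 member was past 1.5-fold higher and 0 lower, beside 8.15% and 7.55% of all genes, and with IL4CD40 1 higher and 1 lower, beside 7.22% and 5.88%; the median was −0.10 under each stimulus. Ndufv1 was at 21.2 FPKM with LPS, 8.23 with DSF and 20.4 with ibrutinib, and at 22.9, 7.82 and 23.1 with IL4CD40. Uqcr11 was at 24.7, 8.14 and 22.5 with LPS and at 27.3, 9.38 and 26.2 with IL4CD40. In both genes the ibrutinib library was near the vehicle library and the DSF library stood apart. The member higher in each was Cox6a2, at 6 counts against 2 and 9 against 3 (ratios of 2.28, 0.407 to 23.1, and 2.14, 0.535 to 12.3), and the lower one was Ndufa12, at a log2 ratio of −0.78.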

How the data were processed

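B cells of mouse spleen were profiled by RNA-seq in 27 libraries, 20 in a first experiment (5 groups of 4) and 7 single libraries in a second. Per the labels and the study's methods, the authors prepared poly(A) libraries, trimmed reads with fastp, aligned them with HISAT2 2.0.5 to mm10 and counted reads per gene with featureCounts 1.5.0-p3. The deposited count tables hold whole reads per gene, and the deposited FPKM tables hold the authors' length- and depth-scaled values. The strand setting, the handling of reads with several matches and the test behind the study's lists of changed genes are not given in the sources used here, and 40 members overlap another gene, 32 of them a gene on the other strand. Labels and methods also give different numbers of cells per well.

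Each pair of groups was fitted on all genes with edgeR 4.0.16 in R 4.3.3 (TMM scaling, filterByExpr, quasi-likelihood F test), and p-values were adjusted by Benjamini-Hochberg over all genes tested, with 0.05 as threshold. Scripts were tested on simulated data. Levels between genes used FPKM, whose log2 ratios differed from the edgeR values of members by a median of 0.02 and at most 0.06. In the second experiment log2 ratios used TMM scaling, a prior count of 2 and genes averaging 10 counts or more. Alternatives were DESeq2 1.42.0, its size factors, total counts, all genes with any count, all 20 libraries together, a replicate block and libraries left out. The pairs left out together were chosen after seeing the data. Replicates differed beyond sampling noise in all 30 pairs (chi-square per gene 2.86 to 90.8).

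The members and the lists were chosen with earlier results of these data known. Named are, per comparison, the 8 members per direction with the largest change among those past the threshold, without overlap and with 10 or more counts throughout the higher group, the most abundant member of each complex, complex II, the isoforms, and the 5 with the smallest p for the difference between stimuli. Atp5k, Uqcr10, Uqcrc1, Uqcrc2, Cox6c, Cox7b and the examples from the lists fall outside this rule and were chosen after their values were seen. Sequences are RefSeq promoters, and no protein sequence was used here. Values of some members counted in the comparisons are not reported here.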

Additional observations from a re-analysis of the deposited data

Results flagged for a closer look

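In 7 of 250 groups of 4 libraries checked, 1 library lay so far from the other 3 that its gap took up most of the group's range, where chance gives about 1 in 20. With IL4CD40 and DSF, replicate 3 was high in the summed level of complex I, at 840.8 FPKM, and in Sdhb, at 32.0 FPKM. With LPS, replicate 3 was high in Ndufa12, at 19.45 FPKM, and in Atp5b, at 217 FPKM, and replicate 2 in Ndufb6, at 27.1 FPKM. With IL4CD40, replicate 4 was low in Ndufaf7, at 2.735 FPKM, and replicate 3 in Ndufa13, at 16.3 FPKM.

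For 8 of the 88 members tested (9.09%) the effect of DSF with LPS differed from that with IL4CD40 by edgeR's quasi-likelihood test in 1 fit of 16 libraries, beside 6.96% of all genes tested lower and 7.92% higher. Among them the differences of the log2 fold changes were −0.67 for Atp5k, −0.50 for Cox7a2l, −0.48 for Ndufa6, −0.50 for Ndufv3, −0.24 for Sdha, −0.38 for Sdhc and −0.38 for Uqcrh, all towards a lower value with LPS. The share called lower was near that of all genes, and the count depended on which IL4CD40 libraries were used.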

How the results depend on the processing

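With total counts in place of TMM, LPS raised 11 members and lowered 30, IL4CD40 raised 23 and lowered 16, DSF raised 4 with LPS and 4 with IL4CD40, and the difference between stimuli was called lower for 14; in the second experiment DSF with LPS put 2 members past 1.5-fold higher. With all 20 libraries in 1 fit, IL4CD40 lowered 16 and DSF with LPS raised 5. With any count as filter the difference was higher for 1, and with a mean of at least 50 counts ibrutinib left 0 and 0 members past 1.5-fold higher. Without IL4CD40 replicates 1 and 2 that stimulus raised 23, DSF raised 14 and the difference was lower for 37; without replicates 3 and 4 the stimulus lowered 3 and the difference was lower for 5 and higher for 2. Directions turned for Atp5g2 with LPS without unstimulated replicates 3 and 4 (0.17), and with total counts for Sdhd (−0.20) and Uqcrh (−0.022) under DSF with LPS. The cause was not tested. Counts over all genes are given above for the pairs left out, and for the stimuli and DSF with total counts.

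Leaving out 1 library at a time gave 26 to 32 raised and 10 to 15 lowered for LPS, 30 to 39 and 8 to 11 for IL4CD40, 6 to 9 and 56 to 66 for DSF with LPS, 5 to 9 and 38 to 47 for DSF with IL4CD40, and 0 to 1 and 5 to 11 for the difference. Deviations of same-numbered replicates from their group means had correlations of −0.056 to 0.169. Such values cannot settle whether same-numbered samples shared a source, so whether the numbers pair the samples is not known. With the replicate block LPS raised 25 and lowered 11, and IL4CD40 34 and 9. DSF raised 8 and lowered 62 in LPS-treated cells and 5 and 42 in IL4CD40-treated cells, and the difference was higher for 0 and lower for 7. Of 2308 values of named genes under the alternatives, 2149 kept direction and call, 96 lost the call, 60 gained it and 3 turned. Low counts limit Cox6a2, Cox6b2 and Cox7a1, and the second experiment has no replicate.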
